A study of Mus musculus with 80 samples.

Results

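Single neurons from the dorsomedial striatum were divided by their level of Npas4, an activity-dependent transcription factor, and the divided cells were compared across genes. A cell counted as Npas4-expressing with Npas4 above 1 TPM, a unit that corrects read counts for gene length and for the total of each library, and as Npas4-silent at or below 1 TPM. Of the 80 cells in the series, 74 were used, and 31 of these were Npas4-expressing and 43 Npas4-silent. The 6 others were 2 cells with Chat above 100 TPM, 3 cells with fewer than 2000 genes above 1 TPM, and well D04 of plate FACS051_5. None of these 6 had Npas4 above 1 TPM. Since Npas4 itself chose the cells, its values are given as a description and no test is attached to them.

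The cells came from adult female mice of the strain Drd1a-TdTomatohet;Drd2-EGFPhet, in which a bacterial artificial chromosome puts TdTomato under Drd1a regulatory sequence and another puts EGFP under that of Drd2. A Drd1 cell was sorted for TdTomato and a Drd2 cell for EGFP, so each reporter follows its transgene and not the receptor protein. The methods describe the same steps for the cells of both Npas4 groups. These were a stereotaxic injection of India ink and Hoechst dye under anaesthesia that marked the region, perfusion with cold buffer, papain digestion, and sorting of 1 cell to a well. The groups differ in their plates, as 24 of the 31 expressing cells were on FACS086_4 and 27 of the 43 silent cells on FACS051_5. Whether the plates were handled alike is not given. No stimulus was given to set the groups apart. Each cell is a library of its own, and the labels do not tie cells to animals, so no p-value was computed between the groups. Intervals on shares of cells are exact 95% binomial intervals and cover counting error only. The read depth of each single cell is not given in the sources used here, so a gene without signal is described as listed at 0.

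Npas4 is a basic helix-loop-helix PAS protein that pairs with ARNT family partners. Its gene is switched on within minutes by calcium entry through voltage-gated channels and NMDA receptors, needs no new protein synthesis, and responds to depolarisation more selectively than Fos, which growth factors and cAMP induce as well. Fos, Junb, Egr1 and Nr4a1 belong to the same early response as transcription factors, while Arc, Homer1, Dusp1 and Gadd45g are early effectors. In the striatum these genes are used as marks of recently active projection neurons, the inhibitory output cells of the region.

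Many promoters of early genes carry short sites for the calcium-regulated factor CREB. The 250 bases before the RefSeq start (build GRCm38.p6) of Npas4, Fos, Nr4a1 and Dusp1 are shown because results on these genes follow, and the capitals mark each match to TGACG, the shorter core of the cAMP response element, on either strand (CGTCA where it is on the opposite one). Nr4a1 and Dusp1 were chosen for display after their matches had been counted. Npas4 lies on the minus strand of chromosome 19 (chr19:4989972-4990221), Fos on the plus strand of chromosome 12 (chr12:85473640-85473889), Nr4a1 on the plus strand of chromosome 15 (chr15:101266596-101266845) and Dusp1 on the minus strand of chromosome 17 (chr17:26508473-26508722). In GENCODE M21 the Fos gene begins at the base after its window, while the longer gene models of Npas4 (chr19:4984355-4990316), Nr4a1 (chr15:101254269-101274795) and Dusp1 (chr17:26505590-26562128) contain theirs.
Npas4: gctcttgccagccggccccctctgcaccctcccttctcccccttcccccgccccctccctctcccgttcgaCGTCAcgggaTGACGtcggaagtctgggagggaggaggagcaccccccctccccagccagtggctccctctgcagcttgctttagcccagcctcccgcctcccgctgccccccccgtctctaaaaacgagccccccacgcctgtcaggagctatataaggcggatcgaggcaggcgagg
Fos: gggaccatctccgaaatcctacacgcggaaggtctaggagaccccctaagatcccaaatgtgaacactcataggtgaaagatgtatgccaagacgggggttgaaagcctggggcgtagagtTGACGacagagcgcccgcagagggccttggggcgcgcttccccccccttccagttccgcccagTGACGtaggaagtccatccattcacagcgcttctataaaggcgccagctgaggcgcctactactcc
Nr4a1: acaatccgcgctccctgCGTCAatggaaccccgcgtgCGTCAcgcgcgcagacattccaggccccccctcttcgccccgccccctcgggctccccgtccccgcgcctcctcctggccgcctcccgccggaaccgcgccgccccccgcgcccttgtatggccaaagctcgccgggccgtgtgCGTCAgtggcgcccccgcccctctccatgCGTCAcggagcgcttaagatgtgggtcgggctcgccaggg
Dusp1: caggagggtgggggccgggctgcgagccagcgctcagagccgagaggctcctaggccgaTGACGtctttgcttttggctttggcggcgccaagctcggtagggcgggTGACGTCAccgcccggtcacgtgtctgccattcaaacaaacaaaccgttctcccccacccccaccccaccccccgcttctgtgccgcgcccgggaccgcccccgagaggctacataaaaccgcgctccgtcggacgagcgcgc

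Npas4 and Fos each had 2 matches and Nr4a1 had 4. Dusp1 had 3, of which a pair overlap in the full palindrome TGACGTCA. Over windows of 300 bases (250 before and 50 after the start), 26 of the 40 early response genes with a sequence in the RefSeq table held TGACG in at least 1 window (65%), beside 23% of 27025 genes and 31.6% of the 13068 genes of the expression table that had a sequence. Counted by window, 63.5% of the 52 early windows held it, beside 20.8% of all 32851. The palindrome was in 6 of the 40 genes (15%), beside 2.03% of all genes and 3.13% of those of the expression table. TCGTG, the core that NPAS4 binds, was in 12 of 40 (30%), beside 18.1% and 22.4% in the same order. The CArG box of serum response factor was in 2 of 40, beside 1.81% and 1.74%. Counted by window, it was in 5 of the 52 early windows (9.62%), beside 1.63% of all windows. Arc and Egr1 were among the early genes without a sequence, and bases outside the windows were not searched. All motifs were searched on both strands, TGACG is contained in the palindrome, and a match describes letters in a window and not a bound site.

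The cells matched the projection neuron label on both sides of the Npas4 threshold. All 16 projection neuron markers in the list had a median above 1 TPM in the expressing and in the silent cells of both large plates. On plate FACS086_4 the summed marker level was between 1445 and 7278 TPM in expressing cells and between 1228 and 5749 TPM in silent cells. Markers of cholinergic interneurons summed to at most 1.23 TPM in any expressing cell of that plate, with 5 of the 6 markers listed at 0 in all 38 cells. On FACS051_5 their sums reached 15.7 TPM in an expressing and 6.25 TPM in a silent cell. Cells with Chat above 100 TPM had been left out beforehand, so low values were partly set by that choice. Pvalb and Sst of the other interneurons were listed at 0 in all 38 cells of FACS086_4. Lhx6, a transcription factor of those interneurons, was above 1 TPM in 2 of 24 expressing cells, at most at 4.04 TPM, and in 0 of 14 silent cells, and Nos1 in 1 silent cell. Markers of cortical excitatory neurons, which lie above the striatum, had a median sum of 1.13 TPM in expressing and 0.218 TPM in silent cells, with highest sums of 147 and 20.8 TPM. The cortical marker Tbr1 was above 1 TPM in 8 of 24 expressing and 2 of 14 silent cells there. Markers of oligodendrocytes, the myelinating glia, had median sums of 6.11 TPM in expressing and 2.54 TPM in silent cells of FACS086_4 and of 35.3 and 4.03 TPM on FACS051_5. Among them the myelin gene Mag was above 1 TPM in 9 of 24 expressing and 0 of 14 silent cells of FACS086_4, and in 1 of 6 and 4 of 27 cells of FACS051_5. Microglia markers summed to 271 TPM in an expressing cell of FACS086_4, and astrocyte markers to 232 TPM in a silent one. Endothelial markers had median sums of 39.4 TPM in expressing and 46.6 TPM in silent cells of FACS086_4, with highest sums of 470 and 158 TPM. Of the 4 endothelial markers in the table, 1 had a median above 1 TPM in each group there. The part of these transcripts in the results was not tested.

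Npas4 was listed at 0 in 31 of the 43 silent cells and lay between 0 and 1 TPM in the other 12. The 3 cells nearest to the threshold on the silent side had 0.923, 0.896 and 0.797 TPM, and the 3 nearest on the expressing side had 1.17, 1.31 and 1.31 TPM. No cell lay between 0.923 and 1.17 TPM. On plate FACS086_4 the expressing cells spanned 1.17 to 57.1 TPM, with a median of 17.7 TPM. On plate FACS051_5 the 6 expressing cells had 3.80, 6.18, 7.65, 65.3, 109 and 151 TPM, so the highest Npas4 levels of all cells were on the plate with fewer expressing cells. The single expressing cell of plate FACS086_9 had 26.8 TPM.

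The share of Npas4-expressing cells on plate FACS086_4 was 24 of 38 cells (63.2%, interval 46.0 to 78.2%), and on plate FACS051_5 it was 6 of 33 cells (18.2%, 6.98 to 35.5%). Plate FACS086_9 added 1 of 3 cells. The methods name several animals and independent experiments, and whether a plate stands for an animal, a day or both cannot be told apart from the labels, so an interval over cells does not speak for a plate. Split by plate row after the values were seen, 6 of 21 cells in rows A and B and 0 of 12 in rows C and D expressed Npas4 on FACS051_5, and 15 of 20 and 9 of 18 did on FACS086_4, with overlapping intervals on both plates. Within a plate the intervals of the Drd1 and Drd2 cells overlapped. On FACS086_4, 11 of 20 Drd1 cells (55%, 31.5 to 76.9%) and 13 of 18 Drd2 cells (72.2%, 46.5 to 90.3%) expressed Npas4, and on FACS051_5 it was 3 of 17 and 3 of 16. Over all plates the share was 39.5% of Drd1 cells (24.0 to 56.6%) and 44.4% of Drd2 cells (27.9 to 61.9%).

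**Figure D1:**
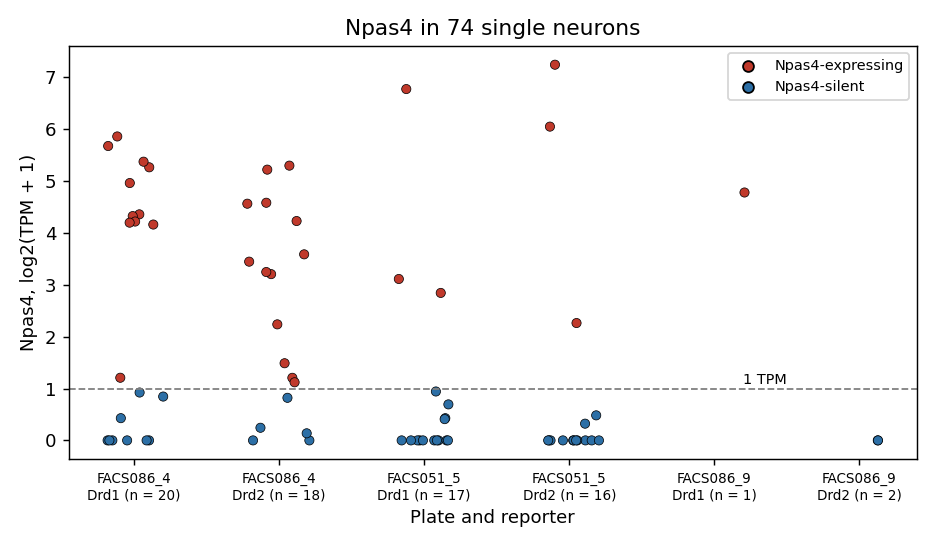
Npas4 as log2(TPM + 1) in each of the 74 cells, by plate and reporter, with a dashed line at 1 TPM. Each point is a cell, red when Npas4-expressing and blue when Npas4-silent. Plate FACS086_4 holds 24 of the 31 expressing cells, and the highest single levels are on FACS051_5.

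Between the plates, Npas4 was found in 45.0 percentage points more cells on FACS086_4 than on FACS051_5. Of the 28 early response genes named here, 14 were found in more cells of FACS086_4 and 14 in fewer, with a median difference of -0.20 points, beside -0.80 points for the 15625 genes whose mean reached 1 TPM. Fos was above 1 TPM in 15 of 38 cells on FACS086_4 and in 9 of 33 on FACS051_5. Egr4, a zinc finger factor of the Egr family, went the other way, with 20 of 38 and 25 of 33 cells. Arc, which encodes a synaptic capsid-forming protein, and the small GTPase gene Arl4d were among those found more often on FACS086_4, in 25 of 38 against 12 of 33 cells and in 34 of 38 against 19 of 33 cells.

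Many Npas4-expressing cells lacked Fos, and most had Arc. Over all plates, 24 of the 31 expressing cells had Arc above 1 TPM (77.4%, 58.9 to 90.4%), against 14 of the 43 silent cells (32.6%, 19.1 to 48.5%). Fos was above 1 TPM in 13 of 31 expressing cells (41.9%, 24.5 to 60.9%) and in 12 of 43 silent cells (27.9%, 15.3 to 43.7%). Of all 15625 genes described, 3.03% were found in at least 25 points more of the expressing cells. These pooled shares mix plate and Npas4 state, since 24 expressing cells came from FACS086_4 and 27 silent cells from FACS051_5. Within FACS086_4, Arc was above 1 TPM in 18 of 24 and 7 of 14 cells, with overlapping intervals. Over all plates, all 3 genes were found together in 11 cells. Npas4 with Arc and no Fos was the more common pattern, with 13 cells, while Npas4 with Fos and no Arc was found in 2 cells and Npas4 alone in 5. Fos with Arc and no Npas4 was found in 9 cells. Seen from Fos, 20 of the 25 cells above 1 TPM had Arc (80%, 59.3 to 93.2%) and 13 had Npas4 (52%, 31.3 to 72.2%). A transcript missed in a cell cannot be told apart from one that was not there.

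Within plate FACS086_4, 24 expressing cells stood against 14 silent cells. The expressing cells were 11 Drd1 and 13 Drd2 cells and the silent cells 9 Drd1 and 5 Drd2 cells. Folds over both reporters thus mix reporter and Npas4 state, and the part of the reporter in them was not tested. On this plate the median fold of the early response genes was positive, and so was that of all genes that passed a limit on the mean. Folds are log2 ratios of mean TPM + 1, expressing over silent, and a gene was described when its mean over the compared cells was at least 1 TPM. Of all 14902 such genes, 34.7% had a log2 fold above 1, 15.8% had one below -1, and the median was 0.38. Of 52 early response genes listed, 47 were in the table and 35 reached the mean. Among these 35, 12 had a log2 fold above 1 and 2 had one below -1, with a median of 0.71. The share of 12 in 35 is near the background of 34.7%. The limit on the mean pools the cells, so the larger group weighs more in it. Without that limit the medians were 0.06 over all 25160 genes and 0.43 over the 47 early genes. The part of the limit in the medians was not tested. Of the 35, 5 were found in at least 25 percentage points more of the expressing cells and none in at least 25 points fewer, beside 7.06% and 1.48% of all genes.

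Detection moved with these groups. The expressing cells of FACS086_4 had a median of 5849 genes above 1 TPM and the silent cells 4928. Mitochondrially encoded transcripts made up a median of 5.98% of the listed TPM in expressing and 7.74% in silent cells. The part of detection in the folds was not tested.

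Among the early transcription factors, Junb, a partner of Fos in AP-1, had a median of 225 TPM in the 24 expressing cells of FACS086_4, with a range of 0 to 832 TPM, and a median of 52.9 TPM in the 14 silent cells, with a range of 0 to 617 TPM. The groups overlapped over nearly the whole range. Mean Junb was 267 and 137 TPM (log2 fold 0.96), while the share of cells above 1 TPM was 18 of 24 and 11 of 14. Nr4a1, an orphan nuclear receptor, had a median of 76.9 TPM (0 to 650 TPM) in expressing and 12.5 TPM (0 to 141 TPM) in silent cells, with a log2 fold of 1.47 and with 17 of 24 and 8 of 14 cells above 1 TPM. Egr1, a zinc finger factor found in most neurons, was above 1 TPM in 22 of 24 and 11 of 14 cells (log2 fold 0.48). Per1, a clock gene that CREB also drives, had means of 28.1 and 16 TPM (log2 fold 0.77).

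With the reporters pooled, the intervals on the share of cells with Fos were wide and overlapped between the Npas4 groups of FACS086_4. Fos was above 1 TPM in 10 of 24 expressing cells (41.7%, 22.1 to 63.4%) and in 5 of 14 silent cells (35.7%, 12.8 to 64.9%). In Drd1 and Drd2 cells taken apart, these shares went in opposite directions, as given below. Median Fos was 0.0917 TPM in expressing and 0.147 TPM in silent cells, and the highest cells had 583 and 278 TPM. The log2 fold of the means, 0.70, ranged from 0.24 to 1.33 when single cells were left out in turn. Nr4a3, a relative of Nr4a1, had a mean of 6.98 TPM in expressing and 19.9 TPM in silent cells (log2 fold -1.39), and leaving out the silent cell in well D11 alone turned this to 0.70. Ier5, an early response gene linked to the heat shock response, had means of 19.6 and 35.8 TPM (log2 fold -0.84).

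Among the early effectors of FACS086_4, Arc was above 1 TPM in 18 of 24 expressing cells (75%, 53.3 to 90.2%) and 7 of 14 silent cells (50%, 23 to 77.0%). Its median was 16.2 TPM in expressing cells (0 to 236 TPM) and 0.72 TPM in silent cells (0 to 182 TPM). The means, 50.6 and 35.7 TPM, were closer than the medians (log2 fold 0.49), since a few silent cells held much Arc. Gadd45g, a stress and growth arrest gene, was above 1 TPM in 17 of 24 (70.8%, 48.9 to 87.4%) and 6 of 14 cells (42.9%, 17.7 to 71.1%), with a log2 fold of 1.26. Tiparp, a mono-ADP-ribosyltransferase gene, was above 1 TPM in 12 of 24 (50%, 29.1 to 70.9%) and 2 of 14 cells (14.3%, 1.78 to 42.8%).

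Ppp1r15a, which encodes the GADD34 subunit that reverses eIF2alpha phosphorylation, was above 1 TPM in 6 of 24 expressing cells and in none of 14 silent cells, where the highest value was 0.549 TPM. The GTPase genes Arl4d, Rheb and Arf4 were found in most cells of both groups and had higher means in the expressing cells. Arl4d had 221 and 84.4 TPM (log2 fold 1.38), Rheb 176 and 56.1 TPM (1.63) and Arf4 256 and 77.9 TPM (1.70). Homer1, the postsynaptic scaffold whose short form is induced by activity, was close between the groups with 218 and 207 TPM (log2 fold 0.08), and so was the G protein regulator Rgs2 with 561 and 496 TPM (0.18). Other effectors were lower in the expressing cells. Spry2 had means of 11.7 and 18.5 TPM (log2 fold -0.62). Gadd45b had 14.6 and 17.7 TPM (-0.26), though 5 of 24 and 1 of 14 cells were above 1 TPM. Dusp6 was above 1 TPM in 10 of 24 and 8 of 14 cells, with a log2 fold of 0.22.

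**Figure D2:**
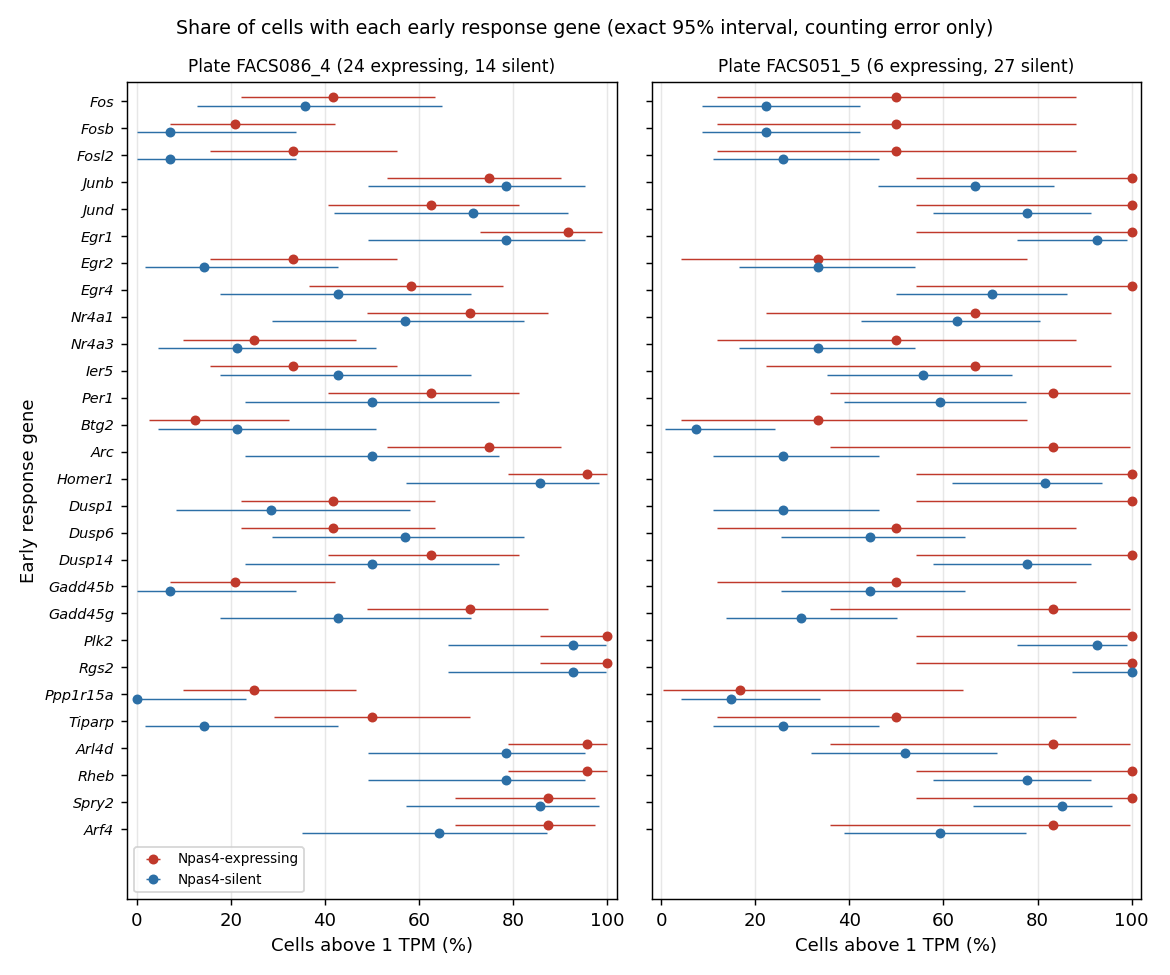
Percent of cells above 1 TPM for the 28 named early response genes on plates FACS086_4 (left) and FACS051_5 (right). Points are shares in Npas4-expressing (red) and Npas4-silent cells (blue), and lines are exact 95% binomial intervals. The intervals overlap for every gene on FACS086_4, and on FACS051_5 those of Dusp1 lie apart.

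On plate FACS051_5 the 6 expressing cells had more early gene transcript than the 27 silent cells for Fos, Arc, Junb, Dusp1 and Homer1. Arc was above 1 TPM in 5 of 6 (83.3%, 35.9 to 99.6%) and 7 of 27 cells (25.9%, 11.1 to 46.3%). In the 6 expressing cells, ordered by well, Arc was 153, 401, 0.341, 90.7, 66.5 and 54.2 TPM, against a median of 0 and a highest value of 225 TPM in the silent cells. Thus 5 of the 6 expressing cells had 54.2 TPM or more, and the groups still overlapped. Fos in the same 6 cells was 160, 380, 58.1, 0, 0 and 0 TPM, against a median of 0 and a highest value of 114 TPM in silent cells. Fos was therefore high in the wells with 109, 151 and 3.80 TPM of Npas4 and listed at 0 in the other 3.

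Mean Fos on FACS051_5 was 99.8 TPM in expressing and 10.8 TPM in silent cells (log2 fold 3.09), and mean Arc was 128 and 20.5 TPM (log2 fold 2.58). Without well A03 these folds were 1.92 and 1.78. Junb was above 1 TPM in all 6 expressing cells, at 109 to 1001 TPM, and in 18 of 27 silent cells (log2 fold 2.05). Dusp1, a phosphatase that switches off MAP kinases, was above 1 TPM in 6 of 6 (100%, 54.1 to 100%) and 7 of 27 cells (25.9%, 11.1 to 46.3%), with means of 72.5 and 27.3 TPM. Homer1 had means of 383 and 110 TPM (log2 fold 1.79). Nr4a1 was level, with 65.1 and 67.6 TPM.

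Across the table of FACS051_5, 37 of the listed early genes reached the mean of 1 TPM, and 15 had a log2 fold above 1 and 9 one below -1, with a median of 0.53. Of all 14187 genes there, 21.7% were above 1, 34.2% below -1, and the median was -0.20. Without the limit on the mean, the medians were -0.00012 over all genes and 0.21 over the early genes. In detection, 12 of the 37 were found in at least 25 points more of the expressing cells and none in at least 25 points fewer, beside 17.9% and 3.64% of all genes. The expressing cells of this plate also had more genes, with a median of 6642 against 5288.

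**Figure D3:**
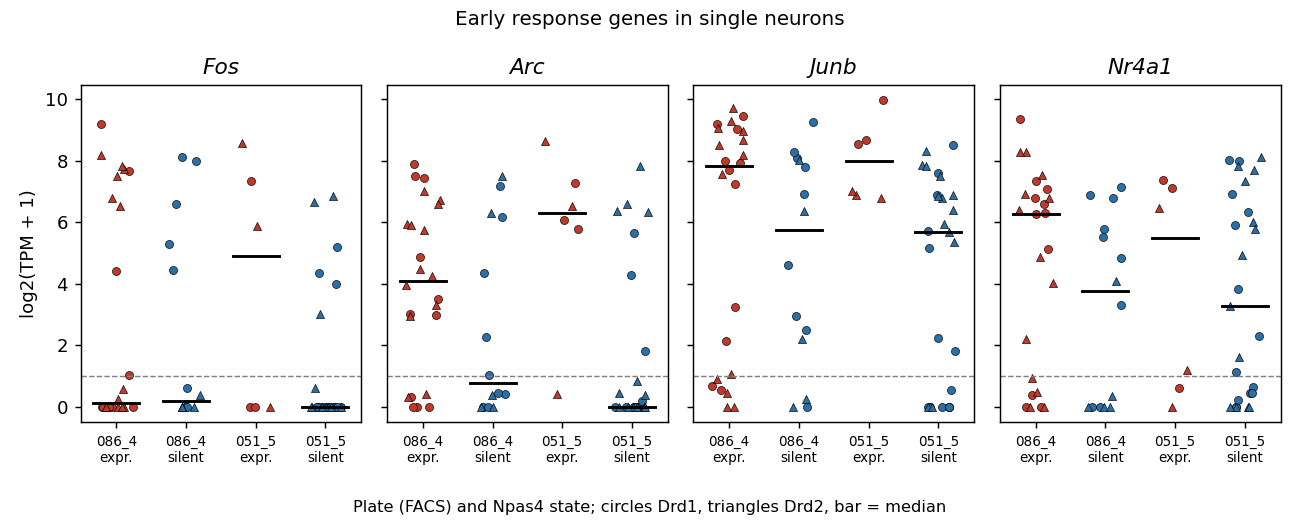
Fos, Arc, Junb and Nr4a1 as log2(TPM + 1) in each cell of plates FACS086_4 and FACS051_5, by Npas4 state. Circles are Drd1 and triangles Drd2 cells, bars are medians, and the dashed line is 1 TPM. Median Arc is 16.2 TPM in the expressing and 0.72 TPM in the silent cells of FACS086_4, while median Fos is near 0 in both.

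Set side by side, the plates shared a direction for most early genes and differed for some. Of the 28 named early genes, 23 had a positive fold on FACS086_4 and 20 on FACS051_5 (71.4%), and 17 had one on both (60.7%). These genes were named for a share of at least 20% in either group on FACS086_4. Fosb, Fosl2, Egr2, Gadd45b, Ppp1r15a and Tiparp passed only through the expressing cells, and Btg2 only through the silent cells. The count of positive folds on FACS086_4 was thus partly set by this choice, while the genes set beside it entered by their mean TPM. Of the 12289 genes described on both plates, 61.3% had a positive fold on FACS086_4, 47.1% on FACS051_5 and 29.2% on both. Gadd45g was higher on both, with log2 folds of 1.26 and 1.93, as were Arl4d (1.38 and 0.54), Junb (0.96 and 2.05) and Tiparp (0.93 and 1.05). Rheb (1.63 and -1.08), Arf4 (1.70 and -1.13), Egr2 (0.76 and -1.17) and Nr4a3 (-1.39 and 2.09) had opposite signs. Over all plates 38 early genes reached the mean, of which 10 had a log2 fold above 1 and 4 one below -1, with a median of 0.51, beside 20.4% and 16.1% of all genes and a median of 0.13. In detection, 6 of these 38 were at least 25 points higher and none lower, beside 3.03% and 0.166% of all genes. Since the plates differ in their share of expressing cells, the pooled values mix plate and Npas4 state.

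**Figure D4:**
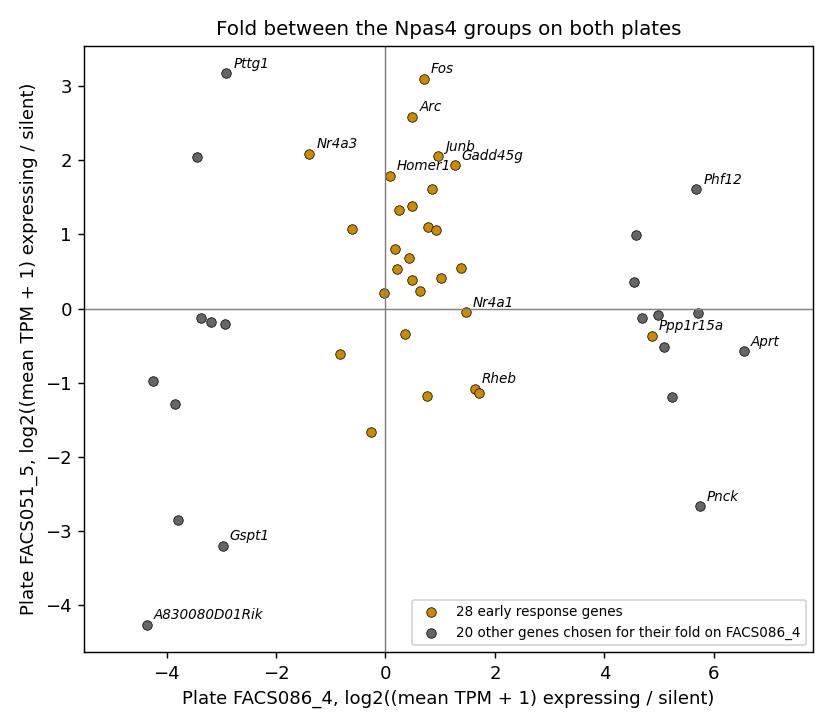
Log2 fold of mean TPM + 1 between Npas4-expressing and Npas4-silent cells on plate FACS086_4 (x axis) and plate FACS051_5 (y axis) for 28 early response genes (orange) and 20 other genes chosen for their fold on FACS086_4 (grey). The early genes were named by their share of cells on FACS086_4, and 17 of them lie in the upper right quadrant. Of the 10 grey genes on the right, 3 are above 0 on FACS051_5.

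The Drd1 and Drd2 cells of FACS086_4 were also compared apart. In Drd1 cells, 11 expressing against 9 silent, the early genes had a median log2 fold of 0.01 over 34 genes, with 11 above 1 and 6 below -1, beside 35.7% and 19.7% of all genes and a median of 0.36. Fos was above 1 TPM in 4 of 11 expressing and 5 of 9 silent Drd1 cells, with means of 73.4 and 76.0 TPM. Arc was above 1 TPM in 7 of 11 and 5 of 9, with means of 58.4 and 26.7 TPM. In Drd2 cells, 13 expressing against 5 silent, 24 of 31 early genes had a log2 fold above 1 and none one below -1, with a median of 2.16, beside 53% and 18.6% of all genes and a median of 1.22. Fos was above 1 TPM in 6 of 13 expressing Drd2 cells, at 90.8 TPM or more, and in none of 5 silent ones, where the highest value was 0.294 TPM. Nr4a1 was above 1 TPM in 9 of 13 and 1 of 5.

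The 5 silent Drd2 cells also had the fewest genes as a group, with a median of 3754 and a highest of 4617, against 5513 in the expressing Drd2 cells and 5504 in the silent Drd1 cells. With 0 of 5 cells, a share of up to 52.2% is within the counting interval. Arc was above 1 TPM in 11 of 13 expressing and 2 of 5 silent Drd2 cells of that plate, with medians of 21.5 and 0.317 TPM. Its means, 44.1 and 51.9 TPM, lay the other way, with 77.2 and 182 TPM in the 2 silent cells. Over all plates, Arc was above 1 TPM in 11 of 15 expressing and 8 of 23 silent Drd1 cells, and in 13 of 16 and 6 of 20 Drd2 cells. Fos was above 1 TPM in 5 of 15 and 8 of 23 Drd1 cells and in 8 of 16 and 4 of 20 Drd2 cells. These pooled shares mix plate and Npas4 state as well. The difference between the reporters was not tested.

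Counted cell by cell, the expressing cells of FACS086_4 had a median of 18 early response genes above 1 TPM (9 to 29) and the silent cells 14.5 (6 to 26). Per 1000 genes detected the medians were 3.13 and 2.70, and the ranges, 1.62 to 5.84 and 1.69 to 6.41, overlapped. On FACS051_5 the medians were 22 and 17 early genes, and 3.53 and 2.95 per 1000 genes. In Drd1 cells of FACS086_4 the medians were 18 and 18, and per 1000 genes 2.57 and 2.75. In Drd2 cells they were 16 and 7, and 3.34 and 2.05.

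**Figure D5:**
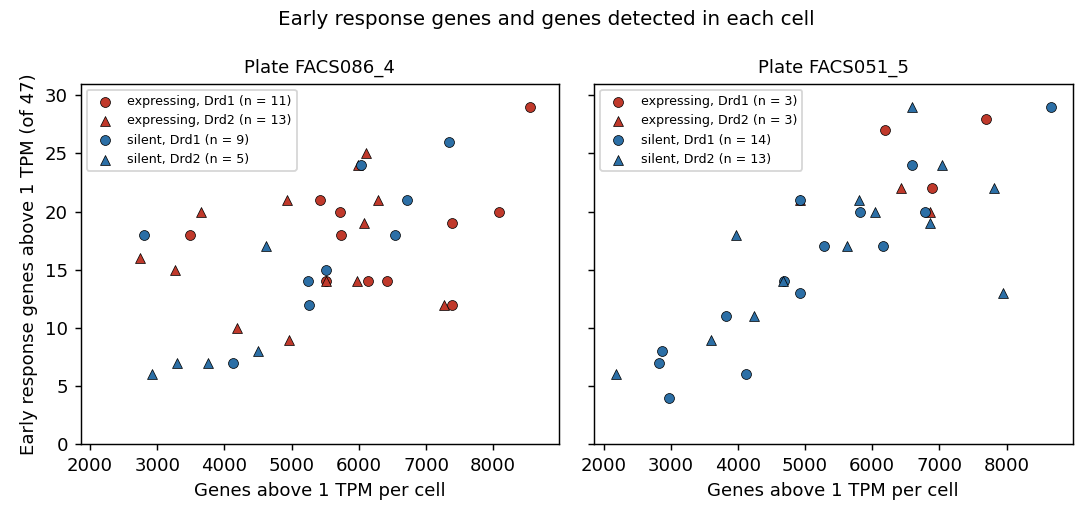
Number of early response genes above 1 TPM (of 47) against all genes above 1 TPM in each cell of plates FACS086_4 and FACS051_5. Red is Npas4-expressing, blue Npas4-silent, circles Drd1 and triangles Drd2. The silent Drd2 cells of FACS086_4 lie at the low end, between 2923 and 4617 genes.

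Late response genes are switched on with the help of NPAS4 and other early factors, and among them Nptx2 encodes a secreted pentraxin that gathers AMPA receptors. Nptx2 was above 1 TPM in 7 of 24 expressing cells (29.2%, 12.6 to 51.1%) and 1 of 14 silent cells (7.14%, 0.181 to 33.9%) of FACS086_4, with means of 26.7 and 3.32 TPM (log2 fold 2.68). On FACS051_5 it was above 1 TPM in 5 of 6 and 8 of 27 cells, with means of 60.5 and 11.4 TPM (log2 fold 2.32), but without well B04, the cell with 307 TPM, that fold was -0.01. In Drd1 cells of FACS086_4 it was above 1 TPM in 5 of 11 and 1 of 9, and in Drd2 cells in 2 of 13 and 0 of 5. Of 13 late genes described on FACS086_4, 4 had a log2 fold above 1 and none one below -1, with a median of 0.60, beside the 34.7% and 15.8% of all genes. Baz1a, a chromatin remodelling subunit, had a log2 fold of 2.78 there, with 5 of 24 and 0 of 14 cells above 1 TPM, and one of -2.14 on FACS051_5. The secretory proteins Scg2 and Vgf were abundant and level, with log2 folds of -0.14 and -0.45. Of 12 late genes described on FACS051_5, 1 was above 1 and 3 were below -1, beside 21.7% and 34.2% of all genes.

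The pathway that carries calcium signals to CREB, MEF2 and SRF was present in both groups. Its most abundant members were calmodulin, with Calm2 at 4185 TPM in expressing and 3987 TPM in silent cells of FACS086_4 (log2 fold 0.07), and the calcineurin subunit Ppp3ca, with 1234 and 1290 TPM (-0.06). Of the 31 members described, 6 had a log2 fold above 1 and 2 one below -1, with a median of 0.22, beside 34.7% and 15.8% of all genes and a median of 0.38. Creb1 itself was above 1 TPM in 8 of 24 expressing and 0 of 14 silent cells, with means of 15.7 and 0.0978 TPM, and in 4 of 6 and 8 of 27 cells on FACS051_5. The CREB coactivator Crtc1 was above 1 TPM in 12 of 24 and 2 of 14 cells of FACS086_4, and in 2 of 6 and 10 of 27 of FACS051_5. Of 8 bHLH-PAS genes described, Arnt, a partner of NPAS4, had means of 36.7 and 1.41 TPM on FACS086_4 and 0.0393 and 6.38 TPM on FACS051_5, and Arnt2, the brain-enriched partner, 24.6 and 17.2 TPM and then 13.6 and 22.6 TPM. The directions of both partners turned between the plates.

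Stress, hormone-responsive and neuropeptide genes were counted on FACS086_4 beside the same 34.7% of all genes with a log2 fold above 1 and 15.8% with one below -1. Of 10 heat shock protein genes described on FACS086_4, 1 had a log2 fold above 1 and none one below -1, with a median of 0.06, and Hspa8 and Hsp90ab1, the most abundant, had folds of 0.53 and 0.04. Of 7 genes of the unfolded protein and integrated stress response, 2 were above 1, Ddit3 and Dnajb9. Ddit3, which encodes the stress factor CHOP, was above 1 TPM in 13 of 24 expressing and 4 of 14 silent cells of FACS086_4 (log2 fold 2.99), and in 1 of 6 and 17 of 27 cells of FACS051_5 (-4.34). Of 5 glucocorticoid-responsive genes, 2 were above 1 and 2 below -1, and Sgk1, a kinase induced by corticosterone, had folds of -1.74 and 1.89 on the plates in turn. Of 6 striatal neuropeptide genes described, 1 was above 1 and 1 below -1. Penk was above 1 TPM in every cell of both plates.

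Outside the lists, the genes with the largest folds on FACS086_4 were chosen for that fold, so their values there are a description. The 10 higher in expressing cells were Aprt, Pnck, Use1, Phf12, Mccc1, Cars2, Rnf168, Cyth2, Usp32 and Ebna1bp2. Aprt, an enzyme of purine salvage, was above 1 TPM in 13 of 24 expressing and 1 of 14 silent cells, with means of 107 and 0.163 TPM. Pnck, a calcium/calmodulin-dependent kinase, was above 1 TPM in 14 of 24 and 2 of 14 cells, and Phf12, a subunit of Sin3 corepressor complexes, in 14 of 24 and 1 of 14. On FACS051_5, which played no part in the choice, 3 of these 10 had a positive fold, beside 44.1% of the 3847 genes with a fold above 1 on FACS086_4, with Phf12 at 1.61, Usp32 at 0.99 and Ebna1bp2 at 0.36, and Pnck had -2.66.

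The 10 lower in expressing cells of FACS086_4 were A830080D01Rik, Mkln1os, Pgap1, Sox2ot, Zfc3h1, Mms19, Dusp26, Gspt1, Ccdc30 and Pttg1. Dusp26, a phosphatase gene of neurons, was above 1 TPM in 5 of 24 expressing (20.8%, 7.13 to 42.2%) and 11 of 14 silent cells (78.6%, 49.2 to 95.3%), and in 4 of 6 and 19 of 27 cells of FACS051_5. Pttg1, which encodes securin, had means of 7.49 and 62.7 TPM on FACS086_4 and 162 and 17.2 TPM on FACS051_5, the opposite order. On FACS051_5, 8 of these 10 had a negative fold, with A830080D01Rik at -4.26, Gspt1, the translation release factor eRF3a, at -3.20 and Sox2ot at -2.84. Of the 1810 genes with a fold below -1 on FACS086_4 and described on both plates, 1068 had a negative fold on FACS051_5 and 41.0% a positive one. Mkln1os and Sox2ot overlap other genes on the opposite strand or the same locus, and reads of the overlapping genes cannot be told apart here.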

How the data were processed

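The authors made cDNA from single cells with the SMARTer v3 kit, sequenced paired ends on a MiSeq, aligned them with STAR 2.5.0 to mm10/GRCm38 with the reporter sequences added, and counted genes with featureCounts 1.5.1. The deposited table gives TPM for 25160 genes in 80 cells. The authors' DESeq2 1.14.1 test needs counts and was not run. The read depth of each cell is not given in the sources used here, and 2183 to 8657 genes per used cell were above 1 TPM. No doublet caller was run.

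The members and gene lists were chosen with earlier results of these data known. Groups were compared as log2 ratios of mean TPM with a pseudocount of 1 and as shares of cells above 1 TPM (exact binomial intervals, scipy 1.17.1). Each cell is a sample and no animal is named, so no test was possible. Named genes were the early genes above 1 TPM in at least 20% of either group on FACS086_4 and, outside the lists, the 10 per direction with the largest fold there (mean at least 10 TPM, above 1 TPM in at least 50% of the higher group, same direction in Drd1 and Drd2 cells). Late genes and other lists are described by counts with abundant examples, while Arnt, Baz1a, Creb1, Crtc1, Ddit3, Dnajb9, Lhx6, Mag, Nos1, Nptx2, Sgk1 and Tbr1 were named after their values were seen. The fold script was tested on simulated data. Positions come from RefSeq promoters of GRCm38.p6, the build of the files.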

Additional observations from a re-analysis of the deposited data

Results flagged for a closer look

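Groups of 4 to 10 cells were searched for a cell far from the others in 12 sets of values, and chance marks about 1 in 20 such sets. The Npas4-silent Drd1 cell in well A01 of plate FACS086_4 had 6.41 early response genes per 1000 genes detected, far above the other 8 cells of its group. It had 18 early response genes, the median of its group, and 2806 genes detected, the fewest of its group. The Npas4-silent Drd2 cell in well C09 of the same plate had 17 early response genes, or 3.68 per 1000 genes, far above the other 4 cells of its group.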

How the results depend on the processing

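Depth and the number of animals limit all values here, and no result carries a test. No paired analysis was possible because the numbers on the cells only name wells and no cell of one group belongs to a cell of the other. The Npas4 share with any signal above 0 TPM was 78.9% on FACS086_4 and 36.4% on FACS051_5, and with a limit of 10 TPM it was 42.1% and 9.09%. Leaving out or keeping the Chat cells, well D04 or cells with few genes kept both shares within their intervals. The log2 fold of Fos was 6.35 in Drd2 cells alone, where the median fold of all genes was 1.22. Mean Fos in the 5 silent Drd2 cells was 0.0587 TPM, below the pseudocount of 1 TPM, so the size of this fold depends on the pseudocount. For Arc the log2 fold was 2.58 on FACS051_5 alone, where the median fold of all genes was -0.20. The median fold of the early transcription factors was 0.74, and 0.0012 in Drd1 and 2.40 in Drd2 cells. That of the early effectors was 0.49, and 0.013 and 1.51.

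The number of early transcription factors past a log2 fold of 1 was 5 of 18 on FACS086_4, beside 34.7% of all genes. With the share of all genes in brackets, it was 1 with a pseudocount of 10 TPM (12.1%) and 3 when the mean of log2 values was compared (12%). It was 13 and 3 with Npas4 limits of 0 and 10 TPM (45.3% and 27%). Over all plates it was 3 of 19 (20.4%), in Drd2 cells 13 of 16 (53%), and with a mean of at least 10 TPM it was 2 (26.8%). It was 3 to 9 when each cell was left out in turn, where the share of all genes was not computed. The number of early effectors was 7 of 17 (34.7%), and 3 with an Npas4 limit of 10 TPM (27%) and 11 of 15 in Drd2 cells (53%). With the fold taken within each reporter and averaged, an alternative chosen after seeing the data, these numbers were 11 and 11 (41.2%).

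Turned signs were counted for named genes with a log2 fold above 1 or below -1 on FACS086_4, and most turned on the second plate. Genes with smaller folds, such as Egr2, turned as well and are not listed here. On FACS051_5 alone the log2 folds were -0.054 for Nr4a1, 2.09 for Nr4a3, -0.37 for Ppp1r15a, -1.08 for Rheb, -1.13 for Arf4, -0.57 for Aprt, -2.66 for Pnck, -0.060 for Use1, -1.20 for Mccc1, -0.51 for Cars2, -0.093 for Rnf168, -0.12 for Cyth2, 2.04 for Zfc3h1 and 3.17 for Pttg1. Over all plates they were 0.066 for Nr4a3, -0.32 for Rheb and 0.75 for Pttg1. Nr4a3 was 2.90 with an Npas4 limit of 0 TPM, 3.10 in Drd2 cells, 0.45 as the mean of both reporters, and -1.95 to 0.70 when each cell was left out in turn. With the limit at 0 TPM, A830080D01Rik was 1.66, and with it at 10 TPM, Rnf168 was -0.093. Btg2 was -0.22 without cells under 4000 genes, and -0.027 to 2.07 when each cell was left out in turn. The cause was not tested.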
